A study of Mus musculus with 12 samples.

Results

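The expression of 35 genes of the cartilage matrix and of chondrocytes, the cells that make cartilage, was followed in mouse adult fibroblasts (MAFs) as they became senescent, with and without the clock gene Bmal1. The 35 genes were taken from a list of names and made up 35 of the 49315 genes in the count tables. Earlier results of these data were known when the list was chosen, so that it is not independent of them. MAFs are primary cells grown from mouse ears, taken from adult female C57BL/6 mice for the wild type (WT) and from Bmal1 -/- mice (KO), whose sex and strain are not stated separately in the sources used here. Senescence, a lasting arrest of division, was brought on in each genotype by X-rays at a dose of 20 Gy, and control cells had a sham irradiation. The study's methods give a further culture period of several weeks for irradiated cells and state none for controls. Time in culture may therefore differ between senescent and control cells as well, and cannot be told apart from irradiation. All 4 groups were grown at 3% oxygen, had their clocks reset with the glucocorticoid dexamethasone at 100 nM and were harvested 12 h afterwards, which makes each group a single time point. Each combination of genotype and treatment had 3 RNA-seq libraries. The labels do not say whether these 3 came from separate cultures or animals, so that the p-values measure the spread between libraries, which may be technical. WT and KO counts were deposited in separate tables, and a difference in handling between the tables cannot be told apart from a difference between genotypes.

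Cartilage is built on a fibril network of type II collagen, with type IX collagen on the fibril surface and type XI collagen in the fibril core. Aggrecan, a proteoglycan loaded with chondroitin sulphate, fills the spaces, is held on hyaluronan by link protein and gives the tissue its resistance to compression, while matrilins and COMP bridge the parts. SOX9, together with SOX5 and SOX6, is the transcription factor known to drive most of these genes, and the ear is a tissue that contains elastic cartilage. BMAL1, the factor targeted in KO cells, binds E-box DNA (CACGTG) with CLOCK, and AP-1 factors, which the study examined with BMAL1, bind TGANTCA.

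To show the DNA next to the start of these genes, whichever way they moved, the 250 bases before the RefSeq start site were read for the 27 of 35 genes that had an entry (build GRCm38.p6), and both strands were searched for the E-box CACGTG, the AP-1 letters TGANTCA, 1 SOX motif spelt ACAATG and another spelt ACAAAG, and the RUNX letters TGTGGT. No motif contains another. Col2a1, Col9a3, Comp, Prg4, Scrg1, Sox9, Trps1 and Slc26a2 had no entry, so that nothing is said here of their start sites. The E-box was found in 1 of the 27 genes, Wwp2, against 6.86% of the 27025 genes in the table. TGANTCA was found in 1, Susd5, against 7.82% of all genes. ACAATG was present for 3 of 27 and ACAAAG for 4 of 27, against 12.2% and 18.6% of all genes, and TGTGGT for 7 of 27 against 15.9%. A match is a description of letters and not a binding site, and a window without one says only that these letters are not there. By ChIP-seq, which was not examined here, the paper reported less BMAL1 binding in senescent than in control cells for genes that included Col2a1, Col9a1, Col11a1, Runx2 and Bmpr1b. For 4 genes the window is printed 5′ to 3′ on the gene's own strand with matches in capitals. Matn3 (chr12:8947679-8947928, plus strand) and Cnmd (chr14:79662184-79662433, minus strand) belong to the genes with the largest falls and held none of the 5 motifs. Ucma (chr2:4975872-4976121, plus strand) carried the RUNX letters, on the opposite strand, with the first base at -62 from the start site. Wwp2 (chr8:107436120-107436369, plus strand) carried the E-box, with the first base at -6.
Matn3: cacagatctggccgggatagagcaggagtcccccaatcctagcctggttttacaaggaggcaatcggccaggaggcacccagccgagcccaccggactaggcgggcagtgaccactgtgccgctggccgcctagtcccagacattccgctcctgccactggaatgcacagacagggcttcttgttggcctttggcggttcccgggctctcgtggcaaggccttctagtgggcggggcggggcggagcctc
Cnmd: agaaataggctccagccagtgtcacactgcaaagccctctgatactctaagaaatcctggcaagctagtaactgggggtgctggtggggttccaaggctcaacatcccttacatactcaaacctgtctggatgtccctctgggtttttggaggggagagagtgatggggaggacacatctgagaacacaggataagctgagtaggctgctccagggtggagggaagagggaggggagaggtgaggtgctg
Ucma: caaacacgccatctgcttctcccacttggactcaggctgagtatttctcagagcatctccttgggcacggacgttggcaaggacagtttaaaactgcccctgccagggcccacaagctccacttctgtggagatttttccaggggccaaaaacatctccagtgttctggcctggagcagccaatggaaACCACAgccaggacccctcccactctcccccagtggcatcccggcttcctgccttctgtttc
Wwp2: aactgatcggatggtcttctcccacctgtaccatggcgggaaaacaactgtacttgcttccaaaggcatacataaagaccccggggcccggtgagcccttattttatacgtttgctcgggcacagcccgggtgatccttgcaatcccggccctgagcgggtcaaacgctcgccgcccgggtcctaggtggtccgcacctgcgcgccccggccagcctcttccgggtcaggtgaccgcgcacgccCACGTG

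Libraries held 23923030 to 31736083 counts, and levels are given as CPM, counts scaled to a library of 1000000, after TMM scaling, a correction for differences in RNA composition. Arntl, the gene symbol of Bmal1, was at 29.8, 31.6 and 33.2 CPM in control and 37.4, 35.8 and 35.2 in senescent WT libraries, and at 15.2, 11.8 and 12.5 in control and 27.01, 25.3 and 27.5 in senescent KO libraries, so that every KO library lay below every WT library. The level counted over the gene was thus reduced and not absent in KO cells: KO was lower than WT by -1.26 ± 0.09 (adjusted p = 2.0e-09) on the log2 scale in control cells and by -0.44 ± 0.08 (adjusted p = 3.3e-04) in senescent cells, and in KO it was higher in senescent than in control cells by 1.02 ± 0.09 (adjusted p = 2.0e-09). By qPCR, a different measure, the paper reported that KO cells had lost the Bmal1 transcript. Counts per gene do not show which exons the reads came from, and exons of Arntl overlap those of the annotated gene Gm45355. Fibroblast markers (12 genes) were abundant in all groups, and single genes went both ways. By edgeR (adjusted p under 0.05, log2 change over 1 in size), 3 were lower and 3 higher in WT senescent cells. In KO senescent cells 3 were lower and 1 higher. The median log2 change of the 12 was 0.15 in WT and -0.12 in KO. Their sum was lower in senescent cells of both genotypes. It was 24461 to 25197 CPM in WT control and 14364 to 14785 in WT senescent libraries. The KO sums were 30512 to 31505 in control and 16636 to 17174 in senescent libraries. Skeletal muscle markers summed to 44.9 to 58.9, 15.2 to 16.2, 23.2 to 33.8 and 16.3 to 24.8 CPM in the same order, while 8 keratinocyte, 8 macrophage and 8 melanocyte markers each summed to 30.5 CPM at most in any library. The keratinocyte sum was higher in senescent libraries, at 10.6 to 16.1, 26.8 to 30.5, 11.7 to 13.9 and 20.2 to 22.7 CPM in the same order. Over all libraries, 7 Schwann cell markers summed to 29.9 to 58.9 CPM and 8 adipocyte markers to 48.6 to 77.0. Cell cycle markers (10 genes) summed to 1850.1 to 2377 CPM in WT control and 254 to 275 in WT senescent cells, and to 2054 to 2219 and 184 to 215 in KO. The 8 endothelial markers summed to 31.9 to 46.5 CPM in WT control, 28.6 to 32.8 in WT senescent, 29.6 to 48.1 in KO control and 10.2 to 15.8 in KO senescent cells, mostly through Erg, and 4 of them stayed under 1 CPM in all libraries. The 6 tendon markers, mostly Fmod, summed to 645 to 832, 421 to 438, 603 to 827 and 286 to 366 CPM in the same order. Osteoblast markers (10 genes) summed to 5029 to 5369 CPM in WT control and 7209 to 7487 in WT senescent libraries. In KO they summed to 6531 to 7276 and 9263 to 9838, and 4 stayed under 1 CPM in all libraries. The 8 myofibroblast markers summed to 2445 to 2600, 1722 to 1823, 4151 to 4446 and 2413 to 2565 CPM in the same order. In KO against WT control cells 5 were higher, beside 1.36% of all genes (edgeR, adjusted p under 0.05, log2 change over 1). The part of these lists in the results that follow was not tested. Exons of 12 of the 35 genes (Col9a3, Col10a1, Prg4, Matn4, Epyc, Mia, Sox5, Trps1, Runx2, Fgfr3, Wwp2 and Pth1r) overlap exons of another annotated gene, so that their counts are less certain.

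Cartilage genes fell in senescent cells of both genotypes and fell further in KO cells. Of the 35, 33 had enough counts to be tested, and a gene was said to change where the adjusted p was under 0.05 (edgeR quasi-likelihood test, Benjamini-Hochberg over 17416 genes) and the log2 fold change was over 1 in size. In WT cells 14 of 33 fell and 2 rose, where 5.9% of all genes tested fell and 11.6% rose. In KO cells 22 fell and 1 rose, where 7.58% of all genes fell and 11.2% rose. The median log2 fold change of the 33 was -0.42 in WT and -1.64 in KO, beside 0.02 and -0.0028 over all genes. By the interaction of genotype and senescence, the test of the difference itself, the change was more negative in KO for 19 of 33 and more positive for 0, where 2.51% and 1.15% of all genes passed. The all-gene count of more positive interactions, 200 of 17416, was 346 of 17997 without WT control replicate 3. In that more positive direction 1 gene, Papss2, had an unadjusted p under 0.05. With DESeq2 1 gene was more positive at an adjusted p under 0.05, and 0 passed the fold threshold as well. At an adjusted p under 0.05 alone, 17 genes were lower and 5 higher in WT (27% and 29.2% of all genes), 27 lower and 2 higher in KO (28.6% and 28.5%), and 23 more negative and 0 more positive by interaction (11.7% and 9.24%). Control and senescent libraries were fully apart, with senescent lower, for 21 of 33 genes in WT and 27 in KO, where this held for 29.7% and 30.8% of all genes. With senescent higher they were apart for 6 and 2 genes, beside 33.4% and 30.8% of all. Leaving out each library in turn kept the WT count at 14 and gave 20 to 23 in KO and 16 to 21 for the interaction. In bulk RNA, fewer cells of a type and less RNA per cell cannot be told apart.

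The summed level of all 35 genes was 11734 ± 1418 CPM (SD, n = 3) in WT control, 4042 ± 248 in WT senescent, 9272 ± 1576 in KO control and 1672 ± 133 in KO senescent cells. Control exceeded senescent 2.90 times in WT and 5.54 times in KO. This sum was made mostly of few genes: Col2a1, Acan and Col11a1 supplied 42.2%, 17.4% and 14.9% of it in WT control cells. Per kilobase of exon, Col2a1 was the most abundant of the 35 in all 4 groups, at 536, 149, 328 and 48.4 CPM per kb in the order WT control, WT senescent, KO control, KO senescent. Sox9 moved from rank 6 per kilobase in both control groups to rank 4 in WT senescent and rank 3 in KO senescent cells, while Cnmd moved from rank 3 in both control groups to rank 5 and rank 18.

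The cartilage collagens fell as a block except for type X. Col2a1, the chain of type II collagen, was at 4778, 5563 and 4523 CPM in control and 1263, 1364 and 1509 in senescent WT libraries. In KO it was at 2489.7, 3491 and 3112 and 459, 467 and 417. The 4 groups did not overlap for Col2a1, and its control level was already lower in KO than in WT, by -0.71 ± 0.12 (adjusted p = 0.0043) on the log2 scale, which is short of the fold threshold. Its log2 change was -1.85 ± 0.13 (SE) in WT (adjusted p = 4.4e-07) and -2.76 ± 0.13 (adjusted p = 2.0e-08) in KO. The interaction of -0.91 ± 0.18 (adjusted p = 0.005) also missed the fold threshold, and passed it without WT control replicate 2 (-1.01) or without KO control replicate 1 (-1.04).

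Type IX collagen is a trimer of 1 chain from each of Col9a1, Col9a2 and Col9a3. Col9a1 was at 93.3, 125 and 84.1 CPM in control and 21.3, 19.5 and 24.2 in senescent WT libraries, and at 43.8, 75.9 and 73.5 in control and 2.62, 4.08 and 2.67 in senescent KO libraries. Col9a2 was at 107, 142 and 92.8 CPM in control and 33.95, 31.4 and 33.8 in senescent WT libraries, and at 44.8, 77.5 and 69.9 in control and 11.7, 11.3 and 9.29 in senescent KO libraries. Col9a3 was at 381, 481 and 347 CPM in control and 63.8, 66.1 and 73.9 in senescent WT libraries, and at 226, 369 and 319 in control and 19.95, 17.1 and 19.1 in senescent KO libraries. For all 3 genes control and senescent libraries did not overlap in either genotype, and KO senescent libraries were below all the others. In WT the log2 changes were -2.22 ± 0.25 (adjusted p = 5.6e-05), -1.79 ± 0.22 (adjusted p = 1.1e-04) and -2.57 ± 0.19 (adjusted p = 3.2e-06). In KO they were -4.36 ± 0.32 (adjusted p = 2.7e-06), -2.58 ± 0.25 (adjusted p = 1.9e-05) and -4.02 ± 0.21 (adjusted p = 2.5e-07). The fall was deeper in KO for Col9a1 (interaction -2.14 ± 0.41 (adjusted p = 0.0072)) and Col9a3 (-1.45 ± 0.27 (adjusted p = 0.0064)), while for Col9a2 the interaction was -0.79 ± 0.33 (adjusted p = 0.14) and did not pass. 

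Type XI collagen, which sets the diameter of the fibrils, draws on Col11a1 and Col11a2. Col11a1 was at 1654, 1989 and 1598 CPM in control and 702, 776 and 810.2 in senescent WT libraries, and at 1198, 1822 and 1668 in control and 311, 349 and 252 in senescent KO libraries. Col11a2 was at 366, 476 and 346 CPM in control and 76.7, 79.5 and 82.9 in senescent WT libraries, and at 206, 373 and 332 in control and 18.9, 20.5 and 18.1 in senescent KO libraries. Both genes had senescent libraries entirely below the control libraries of the same genotype. Col11a1 changed by -1.20 ± 0.18 (adjusted p = 3.5e-04) in WT and -2.36 ± 0.18 (adjusted p = 4.0e-06) in KO, with an interaction of -1.17 ± 0.25 (adjusted p = 0.011). Col11a2 changed by -2.31 ± 0.22 (adjusted p = 1.8e-05) and -3.99 ± 0.24 (adjusted p = 7.9e-07), with an interaction of -1.67 ± 0.31 (adjusted p = 0.0062). Col10a1, the collagen of hypertrophic chondrocytes, ranged from 14.7 to 26.2 CPM over the 12 libraries and passed in no comparison, with a log2 change of 0.05 ± 0.10 in WT and -0.22 ± 0.10 in KO.

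Since chains of a single collagen are compared here within the same library, their ratio is free of anything that moves both alike. The log2 ratio of Col9a2 to Col9a1 counts was 0.20, 0.18 and 0.14 in WT control, 0.67, 0.68 and 0.48 in WT senescent, 0.03, 0.03 and -0.07 in KO control and 2.15, 1.47 and 1.79 in KO senescent libraries. It was higher in senescent than in control cells by 0.44 ± 0.07 (SE) in WT and 1.81 ± 0.20 in KO, without overlap. The log2 ratio of Col9a2 to Col9a3 was higher in senescent cells too, by 0.80 ± 0.08 in WT and 1.46 ± 0.14 in KO. For Col11a1 over Col11a2 it was 2.17, 2.06 and 2.21 in WT control and 3.19, 3.29 and 3.29 in WT senescent libraries, and 2.54, 2.29 and 2.33 and 4.04, 4.09 and 3.80 in KO. The differences were 1.11 ± 0.05 and 1.59 ± 0.12. Thus chains of types IX and XI fell unequally in both genotypes, and Col9a2 and Col11a1 were the chains that fell least. For Col9a3 over Col9a1 the difference was -0.36 ± 0.06 in WT and 0.35 ± 0.28 in KO, where control and senescent libraries overlapped. With 3 libraries against 3 an exact permutation test of a single ratio cannot go below 0.10, and none was run.

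**Figure D1:**
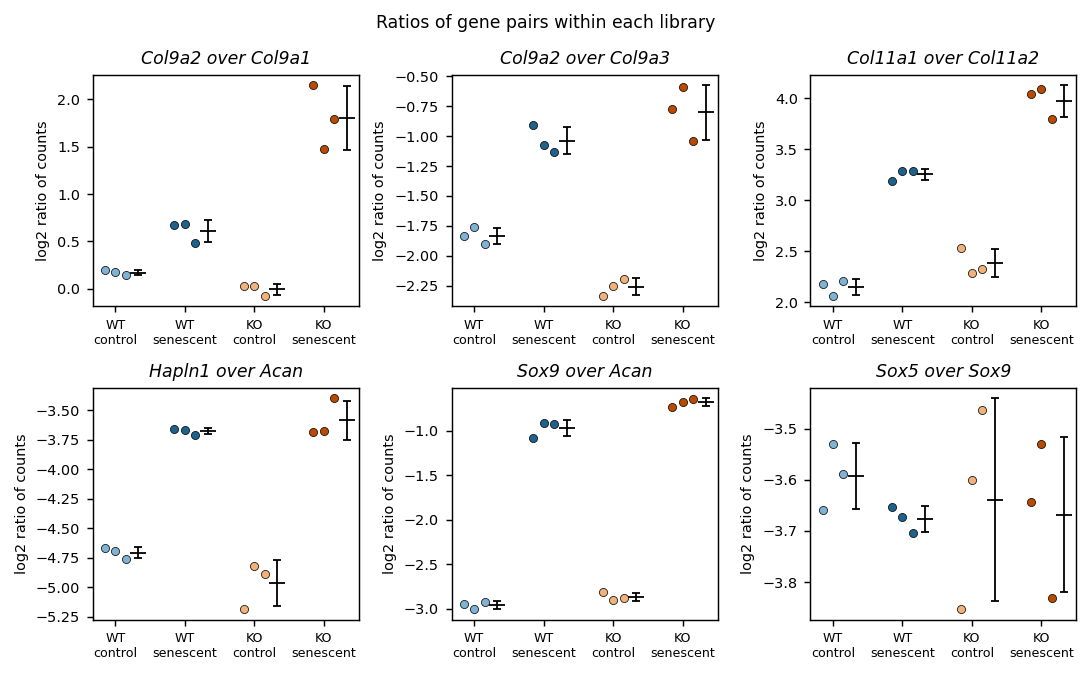
Log2 ratio of the counts of 6 gene pairs within each of the 12 libraries (points), with the mean and SD of the 3 libraries of each group (black). Col9a2 over Col9a1, Col9a2 over Col9a3, Col11a1 over Col11a2, Hapln1 over Acan and Sox9 over Acan lie higher in senescent than in control libraries of both genotypes, and Sox5 over Sox9 overlaps.

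Of the aggrecan network, the core proteoglycan and its partners fell. Acan, which encodes aggrecan, was at 1925, 2310.0 and 1901 CPM in control and 423, 418 and 449.8 in senescent WT libraries, and at 1792, 2270.1 and 2169 and 153, 159 and 128 in KO. WT and KO control libraries overlapped for Acan, and KO senescent libraries lay below WT senescent ones. The fall was -2.25 ± 0.11 (adjusted p = 4.5e-09) in WT, -3.82 ± 0.12 (adjusted p = 4.9e-11) in KO and deeper in KO by -1.57 ± 0.15 (adjusted p = 5.1e-05). Hapln1 was at 75.6, 89.2 and 70.3 CPM in control and 33.5, 32.9 and 34.5 in senescent WT libraries, and at 49.2, 80.6 and 73.2 in control and 11.9, 12.4 and 12.1 in senescent KO libraries. Hapln1 encodes link protein, which locks aggrecan onto hyaluronan, and changed by -1.22 ± 0.16 (adjusted p = 7.6e-05) in WT and -2.48 ± 0.17 (adjusted p = 5.6e-07) in KO (interaction -1.26 ± 0.23 (adjusted p = 0.0044)). It fell less than Acan: the log2 ratio of Hapln1 to Acan was higher in senescent libraries by 1.03 ± 0.03 in WT and 1.38 ± 0.15 in KO, without overlap.

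Matrilins form filaments that link collagen and proteoglycan, and the 3 listed behaved differently. Matn3 was at 17.9, 25.98 and 16.4 CPM in control WT libraries, 1.56, 1.38 and 1.70 in WT senescent and 11.6, 20.98 and 21.04 in KO control libraries, and the KO senescent libraries held only 12, 6 and 4 counts, or 0.463, 0.213 and 0.135 CPM. It had the largest fall of the list in both genotypes, -3.70 ± 0.30 (adjusted p = 6.1e-07) in WT and -6.06 ± 0.40 (adjusted p = 8.9e-08) in KO, with an interaction of -2.36 ± 0.60 (adjusted p = 0.016) that rests on these low counts: the adjusted p was 0.061 without KO senescent replicate 2 and 0.083 without replicate 3. Matn4 was at 29.3, 34.04 and 22.5 CPM in control and 32.2, 38.3 and 37.5 in senescent WT libraries, and at 21.5, 41.6 and 34.1 in control and 14.01, 18.5 and 13.3 in senescent KO libraries. The WT libraries of Matn4 overlapped (0.33 ± 0.25), while in KO the senescent libraries lay below control, by -1.09 ± 0.26 (adjusted p = 0.0056). That change was -0.87 without KO control replicate 2 and -0.99965 without KO senescent replicate 3, both just short of the fold threshold. The Matn4 interaction of -1.42 ± 0.36 (adjusted p = 0.023) passed narrowly, since the adjusted p was over 0.05 when WT senescent replicate 2 or 3, replicate 3 of KO control, or replicate 1 or 3 of KO senescent cells was left out (0.053 to 0.063). Matn1, the matrilin of mature cartilage, was not tested: its highest level was 0.41 CPM, in WT senescent replicate 1.

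Epyc, a small leucine-rich proteoglycan of the growth plate, fell in both genotypes. Epyc was at 2.65, 5.33 and 3.88 CPM in control and 0.544, 1.01 and 0.695 in senescent WT libraries, and at 3.84, 5.35 and 4.98 in control and 1.12, 0.957 and 1.08 in senescent KO libraries. The log2 change was -2.39 ± 0.28 (adjusted p = 3.1e-07) in WT and -2.16 ± 0.27 (adjusted p = 6.0e-07) in KO, and the interaction was 0.22 ± 0.39 (adjusted p = 0.74), a difference with a sign opposite to that of most of the list and smaller than its SE.

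Not all adaptors of the matrix fell. Comp was at 52.3, 66.1 and 49.4 CPM in control and 76.2, 87.2 and 89.9 in senescent WT libraries, and at 32.4, 47.8 and 43.4 in control and 32.5, 39.3 and 29.3 in senescent KO libraries. Comp, a pentameric bridge between collagens, was higher in WT senescent than in WT control libraries, by 0.59 ± 0.16 (adjusted p = 0.012), under the fold threshold, and overlapped in KO (-0.29 ± 0.17). Its interaction was -0.89 ± 0.24 (adjusted p = 0.027), and it passed the fold threshold when 1 of 3 libraries was left out: WT control replicate 2 (-1.03), replicate 1 of KO control (-1.03) or replicate 2 of KO senescent cells (-1.01). Cilp was at 0.563, 0.774 and 0.542 CPM in control and 1.43, 1.52 and 1.93 in senescent WT libraries, and at 1.40, 1.72 and 1.59 in control and 1.16, 1.42 and 1.11 in senescent KO libraries. Cilp2 was at 0.845, 0.326 and 0.271 CPM in control and 1.97, 1.75 and 2.51 in senescent WT libraries, and at 0.96, 1.04 and 0.73 in control and 2.93, 2.45 and 2.06 in senescent KO libraries. These are proteins of the intermediate layer of cartilage, and both stood at low levels of at most 2.93 CPM. Cilp2 rose in both genotypes, by 2.08 ± 0.35 (adjusted p = 3.1e-05) in WT and 1.43 ± 0.31 (adjusted p = 5.4e-04) in KO. Cilp rose in WT, by 1.36 ± 0.29 (adjusted p = 4.0e-04), and overlapped in KO (-0.35 ± 0.26), where its control level was already higher than in WT by 1.32 ± 0.29 (adjusted p = 0.004). The Cilp interaction was -1.71 ± 0.39 (adjusted p = 0.0038). Prg4, the lubricant of joint surfaces, was higher in senescent libraries without overlap, by 0.79 ± 0.09 (adjusted p = 1.7e-07) in WT and 0.63 ± 0.09 (adjusted p = 2.5e-06) in KO, short of the fold threshold. Chad, a leucine-rich matrix protein, ranged from 0.64 to 3.97 CPM and passed in no comparison.

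The small secreted and membrane proteins of chondrocytes held some of the deepest falls. Cnmd, or chondromodulin, an inhibitor of vessel growth in cartilage, was at 381, 507 and 371 CPM in control and 54.2, 53.9 and 60.00 in senescent WT libraries, and at 168, 287 and 262 and 6.79, 5.57 and 5.03 in KO. The groups did not overlap, KO control lying below WT control by -0.81 ± 0.20 (adjusted p = 0.032). The fall was 7.50 times in WT and 41.4 times in KO, and the interaction was -2.46 ± 0.33 (adjusted p = 0.0013). Ucma was at 32.4, 39.8 and 28.4 CPM in control and 5.55, 5.22 and 7.41 in senescent WT libraries, and at 18.96, 29.3 and 26.7 in control and 2.82, 2.06 and 1.62 in senescent KO libraries. Ucma, a secreted protein of the upper growth plate and an inhibitor of calcification, fell with a log2 change of -2.47 ± 0.21 (adjusted p = 1.1e-06) on the log2 scale in WT and -3.54 ± 0.25 (adjusted p = 1.6e-07) in KO. The Ucma interaction of -1.07 ± 0.33 (adjusted p = 0.043) passed narrowly: the adjusted p was over 0.05 in 9 of the 12 fits that left out 1 library, from 0.054 without WT senescent replicate 2 to 0.13 without KO senescent replicate 3. It passed in the other 3 fits, those without WT control replicate 2 or without replicate 1 of either KO group.

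Cytl1 was at 13.4, 19.7 and 13.7 CPM in control and 4.46, 5.35 and 4.40 in senescent WT libraries, and at 5.12, 9.87 and 8.41 in control and 2.05, 3.05 and 4.63 in senescent KO libraries. Cytl1, a cytokine-like protein of cartilage, fell in both, with a log2 change of -1.72 ± 0.29 (adjusted p = 3.0e-04) in WT and -1.26 ± 0.30 (adjusted p = 0.004) in KO, and the interaction of 0.46 ± 0.42 (adjusted p = 0.49) did not pass. Its KO control libraries lay below WT control by -0.9974 ± 0.28 (adjusted p = 0.036). Mia was at 10.6, 16.2 and 10.4 CPM in control and 12.5, 11.6 and 11.8 in senescent WT libraries, and at 7.28, 9.83 and 9.66 in control and 3.90, 4.18 and 4.76 in senescent KO libraries. Susd5 was at 52.2, 64.01 and 49.4 CPM in control and 38.3, 41.1 and 44.7 in senescent WT libraries, and at 41.2, 67.1 and 61.8 in control and 14.7, 15.1 and 12.7 in senescent KO libraries. For Mia, a small secreted protein of chondrocytes, WT libraries overlapped (-0.06 ± 0.15) and KO libraries fell with a log2 change of -1.06 ± 0.17 (adjusted p = 1.9e-05). With KO control replicate 2 left out it was -0.98, and with KO senescent replicate 1 left out -0.99. The Mia interaction of -1.0022 ± 0.23 (adjusted p = 0.0038) sat at the fold threshold and was between -0.89 and -0.99 when any of 7 libraries was left out: WT control replicates 1 and 3, WT senescent replicate 1, KO control replicates 2 and 3, and KO senescent replicates 1 and 2. Susd5 changed by -0.42 ± 0.17 (adjusted p = 0.063) in WT, where it did not pass, and by -2.01 ± 0.19 (adjusted p = 6.7e-06) in KO (interaction -1.59 ± 0.25 (adjusted p = 0.002)). Scrg1 was not tested, with a highest level of 0.37 CPM.

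**Figure D2:**
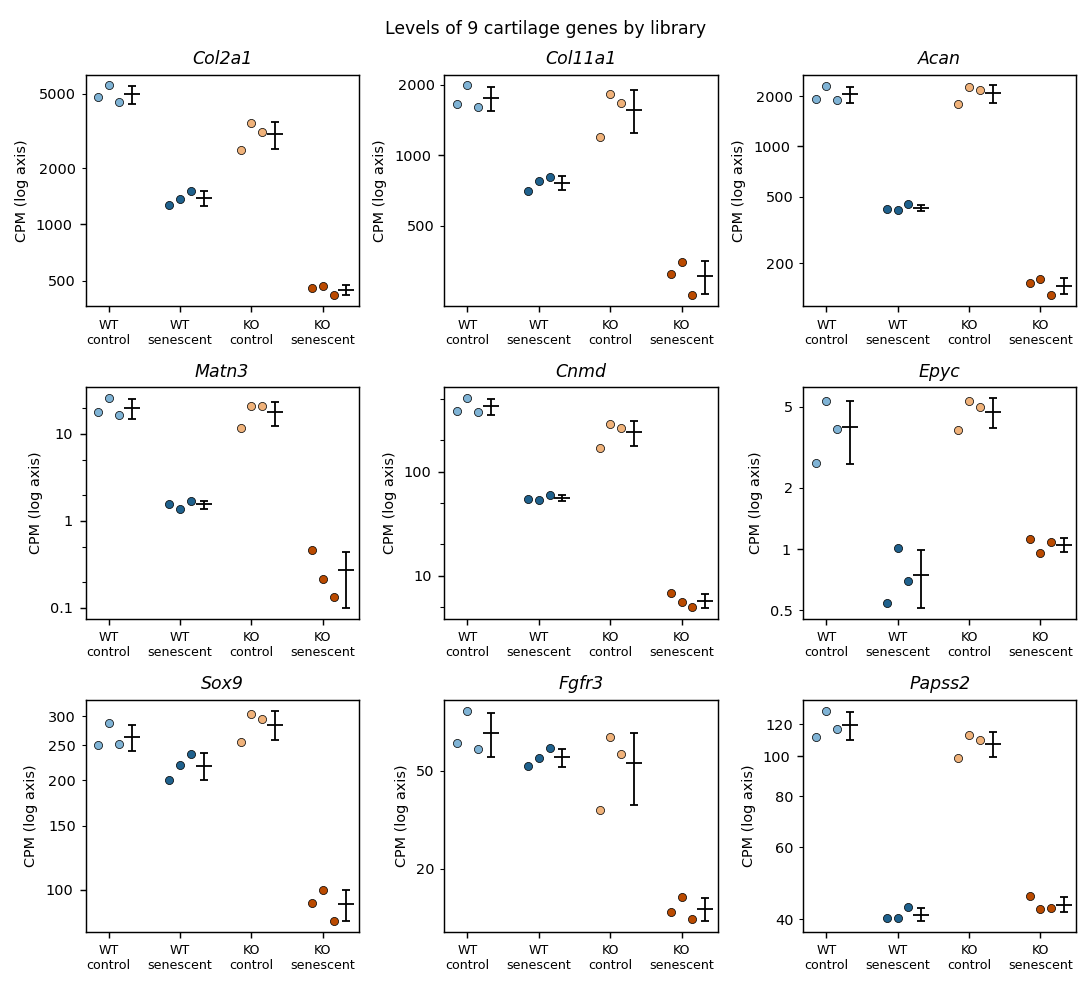
Level of 9 cartilage genes in CPM on a log axis, 1 point per library, with the mean and SD of the 3 libraries of each group (black). KO senescent libraries are lowest for Col2a1, Col11a1, Acan, Matn3, Cnmd, Sox9 and Fgfr3, whereas senescent WT and KO libraries overlap for Papss2.

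The 3 SOX transcription factors passed in KO cells and not in WT cells. Sox9 was at 249.7, 288 and 251 CPM in control WT libraries, 199.9, 221 and 237 in WT senescent, 255, 305 and 295 in KO control and 91.8, 99.8 and 81.9 in KO senescent libraries. WT senescent libraries lay just below WT control, and KO senescent libraries lay far below the other 3 groups. Sox5 was at 19.7, 24.96 and 20.9 CPM in control and 15.9, 17.3 and 18.2 in senescent WT libraries, and at 17.6, 25.1 and 26.7 in control and 7.33, 8.62 and 5.74 in senescent KO libraries. Sox6 was at 89.4, 103 and 94.9 CPM in control and 76.2, 83.4 and 79.4 in senescent WT libraries, and at 73.3, 119 and 104 in control and 39.2, 40.8 and 30.8 in senescent KO libraries. In WT the 3 SOX genes changed by -0.26 ± 0.09 (adjusted p = 0.018) for Sox9, -0.35 ± 0.16 (adjusted p = 0.068) for Sox5 and -0.26 ± 0.17 (adjusted p = 0.21) for Sox6, and none passed. In KO they fell with a log2 change of -1.64 ± 0.09 (adjusted p = 3.7e-10), -1.68 ± 0.17 (adjusted p = 8.3e-07) and -1.42 ± 0.17 (adjusted p = 7.5e-05) in the same order. The interaction was -1.38 ± 0.12 (adjusted p = 7.7e-06) for Sox9, -1.33 ± 0.23 (adjusted p = 0.0012) for Sox5 and -1.16 ± 0.24 (adjusted p = 0.009) for Sox6. Within libraries, the log2 ratio of Sox5 to Sox9 differed between senescent and control by -0.08 ± 0.04 in WT and -0.03 ± 0.14 in KO, and that of Sox6 to Sox9 by 0.00 ± 0.07 and 0.24 ± 0.14, with overlapping libraries in each case.

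The level of Sox9 was set against those of Acan and Col2a1 within libraries. The log2 ratio of Sox9 to Acan was -2.95, -3.0019 and -2.92 in WT control and -1.08, -0.92 and -0.92 in WT senescent libraries, and -2.81, -2.90 and -2.88 and -0.73, -0.68 and -0.64 in KO. It was higher by 1.98 ± 0.06 in WT and 2.18 ± 0.04 in KO. The ratio of Sox9 to Col2a1 was higher by 1.58 ± 0.03 and 1.10 ± 0.08. Acan and Col2a1 thus fell in WT cells in which Sox9 changed by -0.26, and in KO cells they fell by more than Sox9 did. Neither of the other 2 factors passed. Trps1, a GATA-type repressor of the growth plate, changed by -0.20 ± 0.10 (adjusted p = 0.12) in WT and -0.94 ± 0.10 (adjusted p = 1.1e-06) in KO, short of the fold threshold, which it passed when KO control replicate 1 (-1.06) or the KO senescent library of that number (-1.04) was dropped. Runx2, the driver of hypertrophy and bone formation, changed by -0.09 ± 0.06 (adjusted p = 0.22) and -0.36 ± 0.06 (adjusted p = 2.6e-05).

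Among receptors, Fgfr3, a brake on chondrocyte division, and Pth1r, the receptor for parathyroid hormone-related protein, followed different courses. Fgfr3 was at 64.8, 87.7 and 61.5 CPM in control and 52.3, 56.2 and 61.8 in senescent WT libraries, and at 34.5, 68.4 and 58.7 in control and 13.3, 15.4 and 12.5 in senescent KO libraries. Pth1r was at 11.1, 13.3 and 10.2 CPM in control and 15.6, 15.6 and 18.4 in senescent WT libraries, and at 25.5, 25.2 and 26.2 in control and 17.3, 17.4 and 18.2 in senescent KO libraries. Fgfr3 libraries overlapped in WT (-0.33 ± 0.24) and fell in KO by -1.98 ± 0.27 (adjusted p = 1.9e-04) (interaction -1.64 ± 0.35 (adjusted p = 0.012)). Pth1r moved in opposite directions without overlap, higher in WT senescent cells by 0.52 ± 0.10 (adjusted p = 1.2e-04) and lower in KO senescent cells by -0.54 ± 0.09 (adjusted p = 3.7e-05), both under the fold threshold. The Pth1r interaction was -1.05 ± 0.13 (adjusted p = 2.5e-05), and was -0.98 without WT control replicate 3 and -0.97 without WT senescent replicate 3. In control cells Pth1r was higher in KO than in WT by 1.15 ± 0.10 (adjusted p = 3.7e-08), and in senescent cells the genotypes overlapped (0.09 ± 0.09). Wwp2 was at 292, 354 and 266 CPM in control and 211, 215 and 227 in senescent WT libraries, and at 316, 427 and 423 in control and 122, 128 and 123 in senescent KO libraries. Wwp2, a ubiquitin ligase gene that hosts the cartilage microRNA Mir140, changed by -0.48 ± 0.12 (adjusted p = 0.0061) in WT, under the fold threshold, and -1.64 ± 0.13 (adjusted p = 6.8e-07) in KO (interaction -1.16 ± 0.17 (adjusted p = 0.0011)). It is the gene with the E-box letters shown above.

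Of the 3 listed genes that serve the sulphation of chondroitin chains, Papss2 passed and Slc26a2 and Chst11 did not. Papss2, which makes the activated sulphate donor, was at 111, 129 and 117 CPM in control WT libraries, 40.2, 40.2 and 42.8 in WT senescent, 98.96, 113 and 109.9 in KO control and 45.5, 42.3 and 42.6 in KO senescent libraries. Control and senescent libraries were far apart and the genotypes overlapped. Its fall was -1.54 ± 0.06 (adjusted p = 3.0e-14) in WT and -1.30 ± 0.06 (adjusted p = 3.4e-13) in KO, and the interaction of 0.23 ± 0.09 (adjusted p = 0.073) did not pass. Slc26a2, the sulphate transporter, changed by -0.57 ± 0.15 (adjusted p = 0.0074) and -0.78 ± 0.15 (adjusted p = 9.5e-04), and Chst11, a chondroitin sulphotransferase, by -0.12 ± 0.10 (adjusted p = 0.36) and -0.37 ± 0.10 (adjusted p = 0.008), all under the fold threshold. Of 24 other tested genes of chondroitin sulphate synthesis, 0 passed in WT in either direction by edgeR or DESeq2, with 9 lower and 1 higher at an adjusted p under 0.05 alone (27% and 29.2% of all genes) and 11 and 1 at an unadjusted p under 0.05. In KO 3 of the 24 fell, where 7.58% of all genes did, with the largest falls in the sulphotransferase gene Chst3, -1.34 ± 0.23 (adjusted p = 3.7e-05), and in Xylt1, which starts the chain, -1.32 ± 0.19 (adjusted p = 3.4e-04). Their median log2 change was -0.10 in WT and -0.08 in KO.

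**Figure D3:**
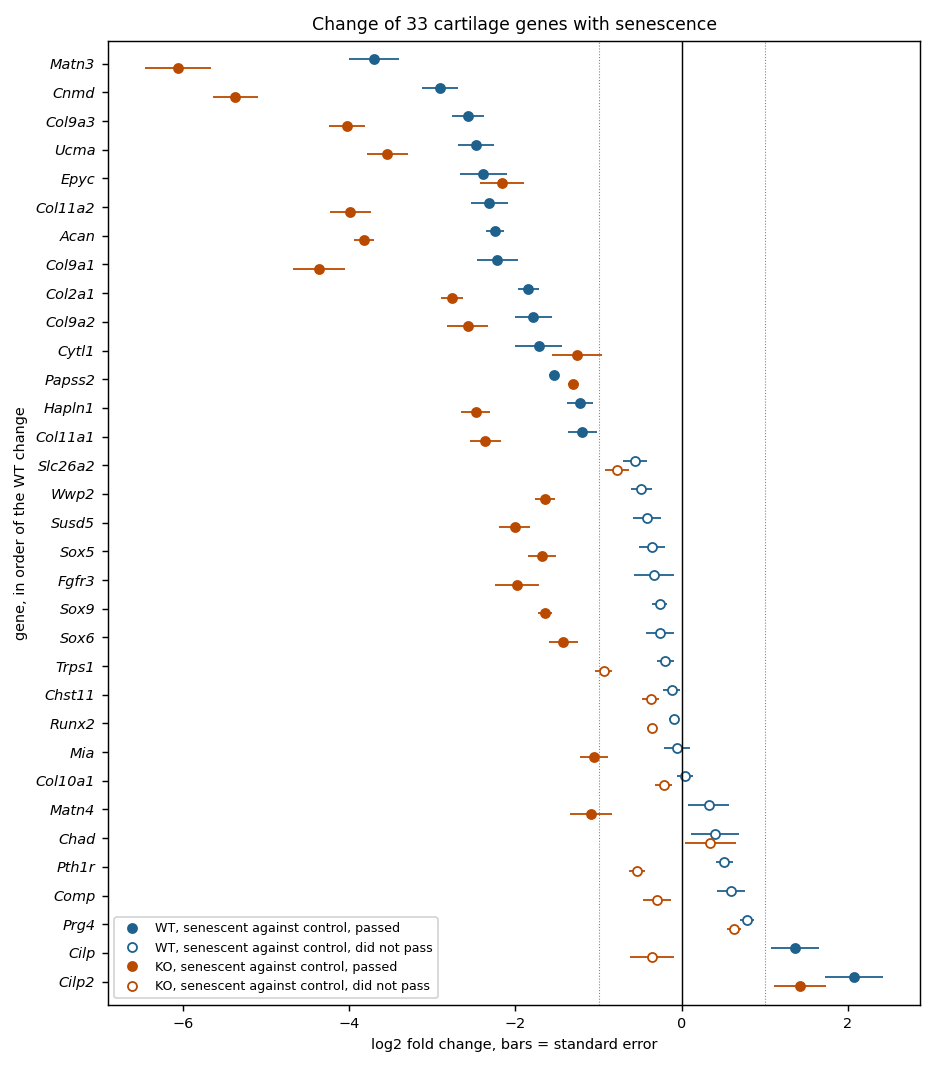
Log2 fold change (x axis) of the 33 tested genes (y axis, ordered by the WT change) from control to senescent cells in WT (blue) and KO (orange), with the SE as bars. Filled points passed the test (adjusted p under 0.05 and a log2 change over 1 in size) and open points did not. Genes from Matn3 to Col11a1 fell in both genotypes, and Wwp2, Susd5, Sox5, Fgfr3, Sox9, Sox6, Mia and Matn4 are filled in KO only.

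Ordered by size, the falls of WT cells ran from -3.70 for Matn3 (12.99 times) through Cnmd, Col9a3, Ucma, Epyc, Col11a2, Acan, Col9a1, Col2a1, Col9a2, Cytl1, Papss2 and Hapln1 to -1.20 for Col11a1 (2.29 times). Neighbours were compared by the ratio of the 2 genes within each library, where a difference over 2 SE was taken as larger than the spread. Matn3 fell more than Cnmd, with a log2 change of -0.77 ± 0.08, and Cnmd more than Col9a3, by -0.33 ± 0.04. Col9a3, Ucma, Epyc, Col11a2, Acan and Col9a1 could not be ordered from one neighbour to the next at this spread. Col9a1 fell more than Col2a1, with a log2 change of -0.36 ± 0.11, and Papss2 more than Hapln1, by -0.32 ± 0.06. A gap of -0.64 ± 0.07 separated Col11a1 from Slc26a2, the next gene. Among the 17 genes lower at an adjusted p under 0.05, 7 of 16 neighbouring pairs differed by over 2 SE.

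In KO cells the order ran from -6.06 for Matn3 (66.8 times) through Cnmd, Col9a1, Col9a3, Col11a2, Acan, Ucma, Col2a1, Col9a2, Hapln1, Col11a1, Epyc, Susd5, Fgfr3, Sox5, Sox9, Wwp2, Sox6, Papss2, Cytl1 and Matn4 to -1.06 for Mia (2.08 times). Among the 27 genes lower at an adjusted p under 0.05, only 3 of 26 neighbouring pairs differed by over 2 SE: Matn3 and Cnmd, by -0.74 ± 0.37, Cnmd and Col9a1, by -0.99 ± 0.27, and Ucma and Col2a1, by -0.78 ± 0.20. For Matn3 over Cnmd the KO control and senescent libraries overlapped. The log2 ratio was -3.85, -3.77 and -3.64 in control and -3.82, -4.60 and -5.05 in senescent libraries, where Matn3 held 12, 6 and 4 counts. The order of these 2 genes in KO is thus uncertain. The other pairs formed a gradual series. Over the 33 genes, the WT and KO changes had a Spearman correlation of 0.914 and a Pearson correlation of 0.912, beside a Pearson correlation of 0.816 over all 17416 genes tested. The points of this description share their libraries and genes are not independent replicates. The change was more negative in KO for 30 of 33 genes, the exceptions being Epyc, Cytl1 and Papss2, and for 53.0% of all genes tested.

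All 14 genes that fell in WT fell in KO as well, and the interaction passed for 9 of them: Col9a1, Col9a3, Col11a1, Col11a2, Acan, Hapln1, Matn3, Cnmd and Ucma. Another 8 genes passed in KO and not in WT, namely Matn4, Mia, Susd5, Sox5, Sox6, Sox9, Fgfr3 and Wwp2, and the interaction passed for all 8. Cilp and Pth1r complete the 19.

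In control cells few of the genes passed both thresholds between the genotypes. The estimate was lower in KO for 18 of the 33 and higher for 15. It was lower for all 7 cartilage collagens (median log2 change -0.40), of which 2 had an adjusted p under 0.05. Of the 33 genes 0 were lower and 2, Cilp and Pth1r, were higher in KO, where 1.18% and 1.36% of all genes passed. The all-gene count of lower calls, 205 of 17416, was 542 of 17997 without WT control replicate 3, 87 of 17957 without WT control replicate 1 and 89 of 17945 without WT control replicate 2. It was 118 of 17989 without KO control replicate 2 and 113 of 18005 without KO control replicate 3. WT control replicate 3 stood apart from the other 2 on the fourth principal component of all genes (4.57% of the variance), at 45.0 against -10.5 and -16.0. On principal component 2 (9.95% of the variance) it was at 4.14 against -23.4 and -26.8. WT senescent libraries were at -25.7, -29.4 and -26.1 there, and KO libraries at 12.6 to 31.9. WT control replicate 3 thus lay towards the KO libraries on that component. KO libraries lay wholly below WT libraries for 8 genes and wholly above for 4, where 10.3% and 15.6% of all genes did so. At an adjusted p under 0.05 alone, where 4.96% and 8.07% of all genes passed, 5 were lower (Col2a1, Col9a2, Cnmd, Cytl1 and Mia) and 3 higher (Prg4 with Cilp and Pth1r), and at an unadjusted p under 0.05 the counts were 11 and 7. DESeq2 called 1 lower, Cytl1, which stood at the fold threshold. In senescent cells 19 of 33 were lower in KO than in WT and 0 higher, where 2.19% and 1.29% of all genes passed, and DESeq2 gave the same counts. At an adjusted p under 0.05 alone 23 were lower and 1 higher (11.8% and 11.9% of all genes), and KO libraries lay wholly below WT for 26 genes and wholly above for 1, where 21.0% of all genes did so each way. In the higher direction 1 gene, Prg4, had an unadjusted p under 0.05 (0.23 ± 0.08). The largest differences were those of Cnmd (-3.28 ± 0.27 (adjusted p = 3.9e-05)), Col9a1 (-2.79 ± 0.33 (adjusted p = 3.9e-04)), Matn3 (-2.53 ± 0.54 (adjusted p = 0.0052)), Fgfr3 (-2.05 ± 0.26 (adjusted p = 6.2e-04)) and Col11a2 (-2.05 ± 0.24 (adjusted p = 3.1e-04)). Comp was among the 19, at -1.33 ± 0.17 (adjusted p = 3.6e-04). Epyc, Papss2, Slc26a2 and Pth1r differed by 0.48 ± 0.31, 0.08 ± 0.07, 0.00 ± 0.15 and 0.09 ± 0.09, with overlapping libraries.

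Within groups the genes also moved together from library to library. Among the 3 WT control libraries, replicate 2 was the highest for 31 of the 33 genes, where 31.6% of all genes tested were highest there. Among KO control libraries, replicate 1 was the lowest for 29 of 33, where 36.4% of all genes were lowest there, and replicate 2 was the highest for 28 (32.2% of all genes). WT control replicate 3 was the lowest for 23 (28.3%). WT senescent replicate 3 was the highest for 22 of 33 (34.0%) and KO senescent replicate 3 the lowest for 22 (35.9%). The summed level ran from 10702 to 13351 CPM among WT control libraries and from 7518 to 10570.2 among KO control libraries. For replicates 1, 2 and 3 in turn, the cell cycle sum was 2189, 1850.1 and 2377 CPM in WT controls and 2219, 2054 and 2099 in KO controls, so that the library with the highest cartilage sum had the lowest cell cycle sum in both genotypes. The part of that difference in the results was not tested. Without KO control replicate 1 the counts were 23 fallen in KO and 21 with a passing interaction, and without WT control replicate 2 they were 14 in WT and 21.

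**Figure D4:**
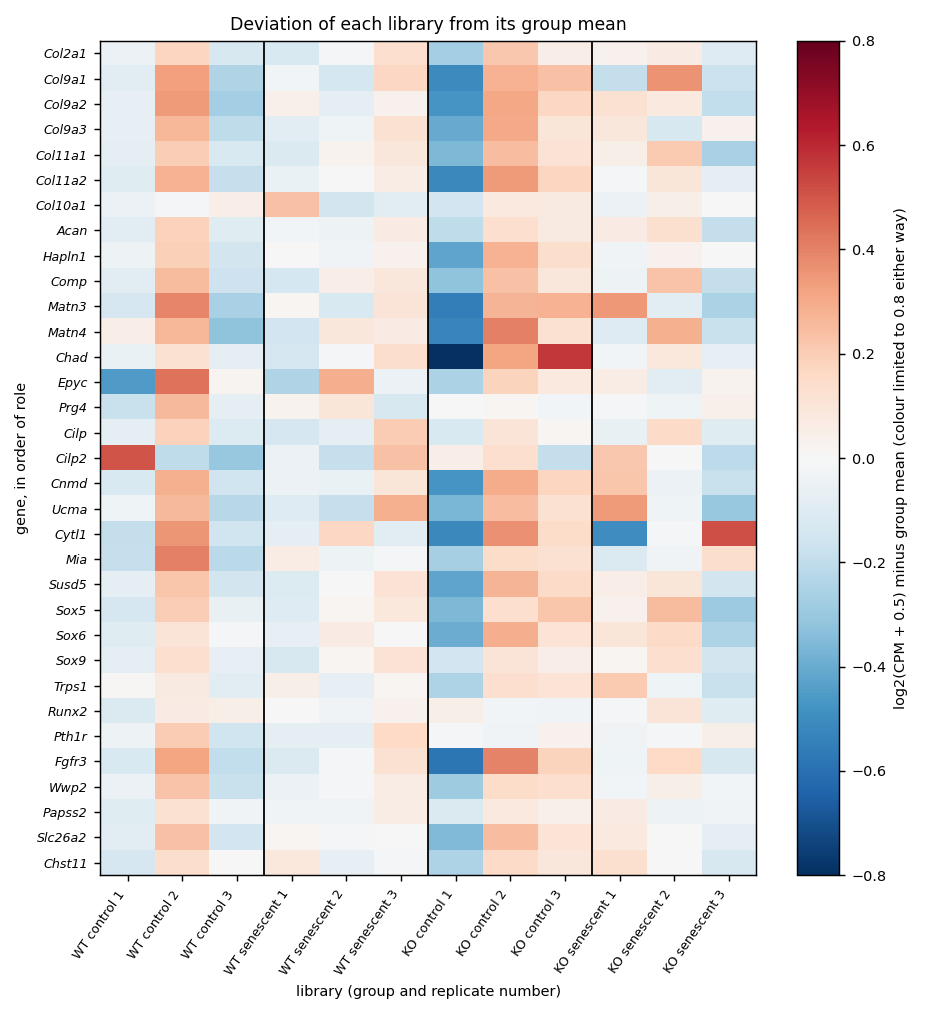
Deviation of each library (columns) from the mean of its group for the 33 tested genes (y axis, ordered by role), on the log2(CPM + 0.5) scale, with red above and blue below the mean and the colour limited to 0.8 either way. KO control replicate 1 is blue for most genes (lowest for 29 of 33), and WT control replicate 2 is red for most (highest for 31 of 33).

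Of 20 other genes tied to cartilage matrix, 18 were tested. In WT 6 fell and 2 rose, beside 5.9% and 11.6% of all genes, and in KO 9 fell and 1 rose, beside 7.58% and 11.2%. Fall was largest for Col6a3, a chain of pericellular type VI collagen, in WT (-2.40 ± 0.10 (adjusted p = 3.8e-11)), followed by Snorc, a chondrocyte membrane proteoglycan (-1.93 ± 0.39 (adjusted p = 3.3e-04)). In KO the largest were Snorc (-3.94 ± 0.51 (adjusted p = 1.8e-06)) and Col27a1, a fibrillar collagen of cartilage (-2.92 ± 0.26 (adjusted p = 1.3e-05)). Otor and Cped1 rose in WT, by 3.80 ± 0.44 (adjusted p = 2.1e-07) and 1.73 ± 0.15 (adjusted p = 8.3e-07), and Otor rose in KO, by 3.25 ± 0.45 (adjusted p = 2.9e-06). All 3 type VI chain genes fell in both genotypes, and their interactions of -0.51 ± 0.11 for Col6a1, -0.37 ± 0.10 for Col6a2 and -0.14 ± 0.13 for Col6a3 were under the fold threshold.

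Signals and regulators of cartilage formation outside the 35 were examined next. Of 24 tested, 8 rose and 1 fell in WT, where 11.6% of all genes rose and 5.9% fell, and 7 rose and 1 fell in KO, where 11.2% rose and 7.58% fell. The bone morphogenetic protein gene Bmp2 was highest in change, by 3.49 ± 0.31 (adjusted p = 5.1e-09) in WT and 4.05 ± 0.27 (adjusted p = 4.1e-11) in KO, from low levels of 0.254 ± 0.0572 and 0.422 ± 0.125 CPM. Grem1, a secreted antagonist of these proteins, rose from 151 ± 15.8 to 951 ± 86.4 CPM in WT (2.65 ± 0.08 (adjusted p = 8.1e-15)). The second largest rise in KO was that of Bmp4 (3.03 ± 0.41 (adjusted p = 2.2e-06)). The receptor gene Bmpr1b fell in WT, with a log2 change of -1.09 ± 0.12 (adjusted p = 4.1e-07), and the repressor gene Nkx3-2 fell in KO, with a log2 change of -1.43 ± 0.44 (adjusted p = 0.0091).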

How the data were processed

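RNA from 12 MAF libraries (4 groups of 3) was sequenced by the authors as paired reads, demultiplexed with bcl2fastq 2.17, trimmed with Trimmomatic 0.36 and mapped to GRCm38 with STAR 2.5.2b, per the labels and the study's methods, and featureCounts assigned reads to genes. The deposited values are raw counts per gene. The annotation release and the use of strand in counting are not given in the sources used here, and the authors ran DESeq2 on these counts. Groups were taken from the sample descriptions.

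Here, symbols, coordinates and exon lengths came from GENCODE M21 (49056 of 49315 identifiers matched). Genes were kept with edgeR's filterByExpr (17416 genes), scaled by TMM and fitted over all 12 libraries with edgeR 4.0.16 (quasi-likelihood test, R 4.3.3), with Benjamini-Hochberg adjustment over all genes. A floor of 3 counts corresponds to 0.0945 to 0.125 CPM and covers counting error only. The SE of an edgeR log2 change is its size divided by the square root of the F statistic of its test. It is approximate, and SEs of different comparisons of a gene need not combine. Ratios within a library used counts plus 0.5. The fit was tested on simulated counts before use. Alternatives were DESeq2 1.42.0, its size factors in edgeR, no scaling factors, no filter, no fold threshold, the compared groups alone, a replicate block and leaving out each library. Values in every library are given for genes called in a comparison with a group mean of at least 1 CPM, and from other lists the 2 called genes with the largest change each way are named. The 35 genes and all lists were chosen with earlier results of these data known, so that no p-value was adjusted over them alone.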

Additional observations from a re-analysis of the deposited data

Results flagged for a closer look

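For 23 of the 33 tested genes the change with senescence differed between the genotypes at an adjusted p under 0.05 (edgeR, interaction over 17416 genes, where 11.7% of all genes were more negative and 9.24% more positive at that level), and in all 23 it was more negative in KO cells. The interaction on the log2 scale was -0.91 for Col2a1, -2.14 for Col9a1, -1.45 for Col9a3, -1.17 for Col11a1 and -1.67 for Col11a2 among the collagens. In the aggrecan network and matrix adaptors it was -1.57 for Acan, -1.26 for Hapln1, -0.89 for Comp, -2.36 for Matn3, -1.42 for Matn4 and -1.71 for Cilp. Small secreted and membrane proteins gave -2.46 for Cnmd, -1.07 for Ucma, -1.0022 for Mia and -1.59 for Susd5. Transcription factors gave -1.33 for Sox5, -1.16 for Sox6, -1.38 for Sox9, -0.74 for Trps1 and -0.27 for Runx2. For the receptors and the ubiquitin ligase gene it was -1.05 for Pth1r, -1.64 for Fgfr3 and -1.16 for Wwp2. Some other lists also leaned this way at an adjusted p under 0.05. Of 10 cell cycle markers 6 were more negative and 0 more positive. The counts were 6 and 2 of 12 fibroblast markers and 9 and 1 of 18 other cartilage matrix genes. They were 3 and 2 of 24 other chondroitin sulphate synthesis genes and 2 and 2 of 8 myofibroblast markers. Passing the fold threshold too were 0 cell cycle markers, 1 fibroblast marker and 5 cartilage matrix genes, beside 19 of the 33. WT and KO counts were deposited in separate tables. A shift shared by both groups of a genotype cancels in this contrast. A shift confined to the control or to the senescent libraries of a genotype does not. Groups of 3 libraries are too small for a test of single libraries that stand apart.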

How the results depend on the processing

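Over 2937 fold changes recomputed, the direction and the side of the threshold were kept in 943 under other settings (5 calls were lost, 4 gained and 5 signs turned) and in 1918 when 1 library was left out (30 lost, 10 gained and 22 turned). Dropping the fold threshold gave 5 genes higher in WT, 2 higher in KO, 5 lower in KO control cells and 1 higher in KO senescent cells, and dropping the low-count filter gave 2 higher in KO. In KO against WT control cells 1 gene, Cytl1, was lower with DESeq2, with its size factors, with no scaling factors and with the replicate block, and 0 to 1 when a library was left out (1 when KO control replicate 2, or else KO senescent replicate 1, was dropped). Over all genes, lower calls in that comparison numbered 205 of 17416, against 95 of 15614 with only these groups fitted and 320 of 34138 with no low-count filter. Cilp2 was higher there without WT control replicate 1 (1.60). Without scaling factors, which put the median of all genes at 0.19 in WT and 0.15 in KO on the log2 scale (0.02 and -0.0028 with them), the WT senescent sum was 4322 CPM, and the WT change turned positive for Mia (0.11), Runx2 (0.083) and Chst11 (0.053), that of Slc26a2 between senescent genotypes turned negative (-0.033), and Matn4 (-0.94) and Mia (-0.90) fell short of the fold threshold in KO. Replicate numbers did not pair the libraries (correlations of same-numbered libraries from -0.125 to 0.127). With the replicate block, 14 genes fell in WT, 22 in KO and 18 by interaction, where Ucma was lost (adjusted p = 0.12), and the Chad interaction was 0.045. The Mia interaction was -0.97 with DESeq2 and with its size factors, short of the fold threshold. Over the fits that left out 1 library, signs turned within genotype for Col10a1 in WT (-0.0863 to 0.122), Mia in WT (-0.169 to 0.185), Chad in KO (-0.0527 to 0.689), the Chad interaction (-0.454 to 0.287) and the Epyc interaction (-0.0561 to 0.506). Between control cells they turned for Col11a1 (-0.284 to 0.00061), Acan (-0.0443 to 0.12), Matn3 (-0.299 to 0.0654), Matn4 (-0.045 to 0.405), Susd5 (-0.0991 to 0.226), Sox5 (-0.0247 to 0.246) and Sox6 (-0.105 to 0.226), and between senescent cells for Slc26a2 (-0.0336 to 0.0433). Sox6 was at -0.99 between senescent genotypes without KO senescent replicate 3. The cause was not tested in any of these cases. Genes at a few counts per library, such as Matn3 in KO senescent cells, are the ones that depth limits most.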
